A study of Mus musculus with 12 samples.

Results

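Macrophages from the endometrium of mice with intrauterine adhesion (IUA) that had been treated with control mesenchymal stromal cells (MSC) were compared with those from sham-operated mice. The comparison covered every gene with an FPKM of at least 1 in at least 3 of the 12 libraries of the series, which was 11604 of the 22294 genes in the table. FPKM is a level scaled to transcript length and to the fragments mapped in a library. Each of the 4 groups held 3 libraries. Sham libraries came from mice that had a sham operation and are labelled untreated. Control MSC libraries came from mice with IUA modelling that then received control MSC, which the series title gives as human umbilical cord MSC. The IUA group had the modelling alone, and its libraries are named for Matrigel, a basement membrane gel; whether the gel is part of the model or a carrier is not given in the sources used here. The primed MSC group had IUA modelling and MSC that were primed with inflammatory cytokines. Strain, age, cell dose and the time of sampling are not given in the sources used here. Control MSC against Sham therefore holds the adhesion model and the cell treatment together, and the IUA group is the only one with the model alone. The labels do not say that the 3 libraries of a group came from separate mice or pools, so p-values measure the spread among these samples.

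Macrophages of the endometrium clear cell debris, present antigen and take part in the repair of the lining after injury. In intrauterine adhesion, scar tissue replaces part of the lining, and macrophages are among the cells that release the cytokines, proteases and growth factors found in scars. F4/80, encoded by Adgre1, is a surface protein of mouse macrophages. Endometrial tissue was digested with trypsin and type I collagenase, red cells were lysed, and F4/80-positive cells were held on magnetic beads before polyadenylated RNA was sequenced. Eosinophils and a few other myeloid cells can carry F4/80 too, and bead columns can retain unlabelled cells.

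Steps between low FPKM values gave an estimated depth of 15200000 to 23600000 fragments in Sham and 17700000 to 20100000 in control MSC, rounded to 3 digits. At the lowest of these depths, an FPKM of 1 for a transcript of 2 kb rests on about 30.4 fragments. Libraries of a group correlated at 0.974 to 0.985 in Sham and 0.982 to 0.988 in control MSC on log2(FPKM + 1) over genes, against 0.883 to 0.936 between the groups. The first principal component of the 12 libraries held 63.4% of the variance and placed Sham at −61.3, −71.6 and −69.4 and control MSC at 9.85, 36.4 and 31.6, next to IUA at 22.4, 2.86 and 15.4. Markers of uterine epithelium were present in every library: their summed FPKM was 8324, 13115 and 14478 in Sham replicates 1, 2 and 3 and 4071, 1619 and 1749 in control MSC replicates 1, 2 and 3. Control MSC replicate 1 was the highest of its group for 19 of the 19 tested epithelial markers, and Sham replicate 1 was the lowest of its group for 18 of them.

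Of the 11604 tested genes, 6592 changed at an adjusted p under 0.05, or 56.8%. These p-values, here and throughout, are from limma on log2(FPKM + 1) with Benjamini-Hochberg adjustment over all tested genes, and changes are control MSC minus Sham on that log2 scale with their standard error (SE). Higher in control MSC were 1632 genes (14.1%), and lower were 4960 (42.7%). The libraries of the groups did not overlap for 7736 genes (66.7%), of which 1978 were higher and 5758 lower in control MSC. Most genes named below were picked for a small p or a large change in this same comparison. A lack of overlap in them was thus likely or required in advance, and it is no separate evidence. Among genes that changed by a log2 of at least 1, 546 rose and 1946 fell; by at least 3, 40 rose and 22 fell. The median change of all tested genes was −0.30. This split depended on how the libraries were scaled. With the libraries scaled to a common median ratio, the all-gene median was −0.01, 2887 genes were higher and 2952 lower, and higher genes made up 49.4% of calls in place of 24.8%. Scaling to an equal FPKM sum per library (TPM) moved the split the other way. It gave a median of −0.42, 1391 genes higher and 5711 lower, and 19.6% of calls higher. Gene lists below are therefore read against the all-gene median and shares, and a list or gene whose direction or call turned with median-ratio scaling is named. The level of a gene and its direction were related. With the tested genes in 4 equal bins by mean level, 6.03% of the lowest bin were higher and 49.1% lower, and in the highest bin 27.6% were higher and 34.0% lower. The 10 most abundant genes held 14.9 to 16.0% of summed FPKM in Sham libraries and 20.6 to 22.1% in control MSC libraries.

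**Figure D1:**
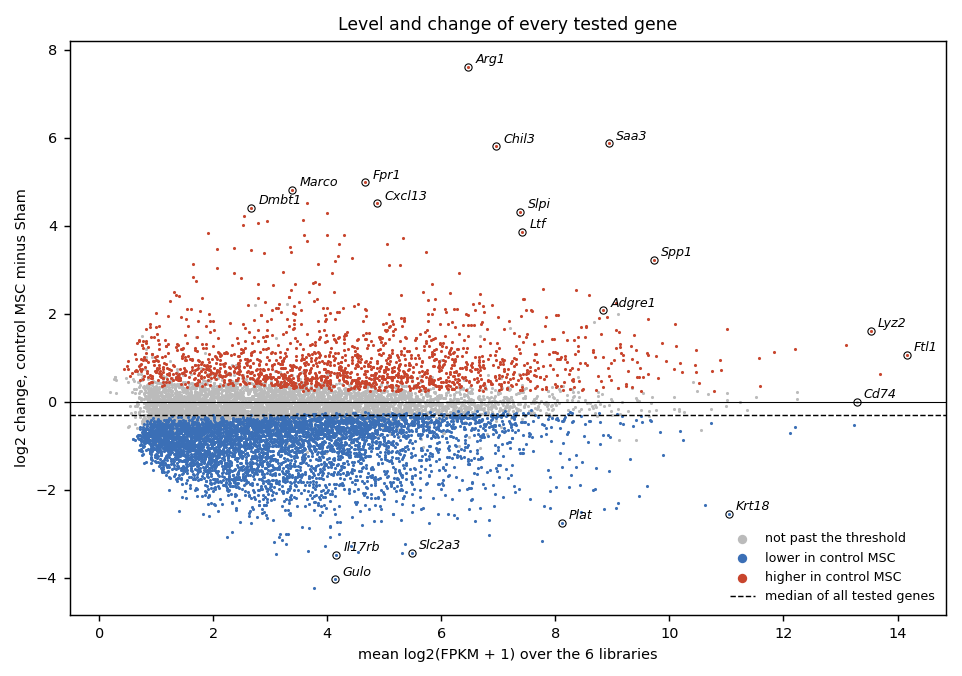
Each point is 1 of 11604 tested genes, with its mean log2(FPKM + 1) over the 6 libraries on the x axis and its log2 change, control MSC minus Sham, on the y axis; blue and red points are lower and higher in control MSC at an adjusted p under 0.05, and the dashed line is the median of all tested genes, −0.30. Lower genes are more numerous than higher genes (4960 against 1632), while the widest rises, with Arg1 at 7.62, exceed the widest falls.

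Genes that define macrophages were higher after adhesion and control MSC. Of 20 markers of macrophage identity, 18 rose and 0 fell, with a median log2 change of 1.12 against −0.30 for all genes. Adgre1 was 256, 207 and 205 FPKM in Sham and 837, 1039 and 944 FPKM in control MSC (log2 change 2.07 ± 0.14, limma adjusted p = 1.31e-06). Itgam, the integrin chain CD11b that binds complement fragments, was 24.6, 18.1 and 21.9 FPKM in Sham and 122, 174 and 138 FPKM in control MSC (log2 change 2.69 ± 0.22, limma adjusted p = 5.53e-06). For both genes every control MSC library was above every Sham library. Lyz2, which encodes lysozyme and was among the most abundant transcripts of either group, was 6556, 8169 and 5769 FPKM in Sham and 19554, 21477 and 20859 FPKM in control MSC (log2 change 1.61 ± 0.13, limma adjusted p = 5.27e-06). Ctss, a lysosomal cysteine protease that trims the invariant chain, was 1291, 1077 and 1138 FPKM in Sham and 3523, 3629.7 and 3859.8 FPKM in control MSC (log2 change 1.65 ± 0.10, limma adjusted p = 7.58e-07). Csf1r, the receptor for the growth factor that macrophages depend on, rose less, by 0.91 ± 0.23 (limma adjusted p = 0.0046), as did Cd68, an endosomal glycoprotein, by 1.05 ± 0.16 (limma adjusted p = 0.000206). The pan-leukocyte gene Ptprc (CD45) was 95.2, 75.9 and 82.8 FPKM in Sham and 152, 188 and 194 FPKM in control MSC (log2 change 1.06 ± 0.13, limma adjusted p = 6.42e-05), also without overlap. In bulk RNA, more cells of a type in a library and more RNA per cell cannot be told apart.

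Receptors for the constant part of antibodies moved in the same direction. Of 9 tested Fc receptor genes 8 rose and 0 fell (median 1.39). Fcgr4, an activating receptor for IgG, was 31.4, 31 and 25.6 FPKM in Sham and 139, 190.2 and 175 FPKM in control MSC (log2 change 2.47 ± 0.17, limma adjusted p = 1.48e-06). Fcgr2b, the inhibitory receptor, was 112, 102 and 103 FPKM in Sham and 279.8, 326 and 318 FPKM in control MSC (log2 change 1.53 ± 0.12, limma adjusted p = 2.85e-06), and the signalling chain Fcer1g rose by 1.76 ± 0.16 (limma adjusted p = 9.43e-06). Activating and inhibitory receptors thus rose side by side, with no overlap between the groups for these 3 genes.

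The most abundant transcripts were largely shared. Ftl1, the light chain of the iron store ferritin, ranked first in both groups, at 15065, 11154 and 11953 FPKM in Sham and 25026, 26908 and 27569.8 FPKM in control MSC (log2 change 1.07 ± 0.14, limma adjusted p = 0.00011). The heavy chain gene Fth1 was 6343, 5140.2 and 5297 FPKM in Sham and 12498, 14281 and 14436 FPKM in control MSC (log2 change 1.30 ± 0.12, limma adjusted p = 1.13e-05). Apoe, which carries cholesterol out of macrophages, was 11665, 10273 and 9787 FPKM in Sham and 17886, 15699 and 15774 FPKM in control MSC (log2 change 0.64 ± 0.14, limma adjusted p = 0.00226). The ferritin chains and Apoe were higher in every control MSC library, although Ftl1 and Apoe did not pass with quantile scaling (limma adjusted p = 0.407 and 0.573). Tmsb4x, an actin-binding peptide, rose by 1.12 ± 0.17 (limma adjusted p = 0.000215). Ubb, a ubiquitin gene, did not pass with FPKM as deposited (log2 change 0.22 ± 0.16, limma adjusted p = 0.262) and its groups overlapped. Under median-ratio scaling Ubb passed (log2 change 0.57, limma adjusted p = 0.0149).

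Arg1 showed the widest rise of all tested genes that passed. Arginase 1 splits arginine into ornithine and urea, and in macrophages it competes with nitric oxide synthase for arginine. Arg1, at chr10:24915221-24927484 on mm10, was 2.72, 9.89 and 5.29 FPKM in Sham and 1131, 1614 and 1050.3 FPKM in control MSC (log2 change 7.62 ± 0.34, limma adjusted p = 2.07e-07). The lowest control MSC library was above 1000 FPKM and the highest Sham library below 10. Saa3, an acute phase protein of serum amyloid type, was 61.7, 60.1 and 67.6 FPKM in Sham and 2762, 5694 and 3372 FPKM in control MSC (log2 change 5.87 ± 0.35, limma adjusted p = 5.79e-07). Chil3, the chitinase-like lectin Ym1, was 13.6, 19.4 and 14.7 FPKM in Sham and 727, 1653 and 679.9 FPKM in control MSC (log2 change 5.81 ± 0.54, limma adjusted p = 1.1e-05). Among these 3 genes control MSC replicate 2 held the highest value of its group each time.

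The other leading rises included receptors and antimicrobial genes. Fpr1, a receptor for formylated bacterial and mitochondrial peptides, was 3.71, 3.75 and 3.07 FPKM in Sham and 106, 223 and 122 FPKM in control MSC (log2 change 4.99 ± 0.28, limma adjusted p = 4.41e-07). Marco, a scavenger receptor for bacteria and particles, was 0.84, 1.1 and 0.95 FPKM in Sham and 44.8, 81.1 and 44 FPKM in control MSC (log2 change 4.82 ± 0.23, limma adjusted p = 2.39e-07). Cxcl13, a chemokine that attracts B cells, was 7.44, 4.66 and 3.88 FPKM in Sham and 91, 174 and 173 FPKM in control MSC (log2 change 4.52 ± 0.30, limma adjusted p = 1.23e-06). In Sham, Marco was near 1 FPKM, where the added 1 of the log scale understates the change. S100a8, one chain of the calcium-binding protein calprotectin, was 1.05, 0.82 and 3.78 FPKM in Sham and 36.2, 71.6 and 77.2 FPKM in control MSC (log2 change 4.51 ± 0.51, limma adjusted p = 4.27e-05), and its partner S100a9 rose by 4.14 ± 0.62 (limma adjusted p = 0.000208). Slpi, an inhibitor of leukocyte elastase that epithelia and macrophages secrete, was 42, 28 and 40.7 FPKM in Sham and 634, 922 and 711 FPKM in control MSC (log2 change 4.32 ± 0.27, limma adjusted p = 8.98e-07). Both were above every Sham library in each control MSC library. Sirpb1c, a signal-regulatory protein of myeloid cells, was 4.13, 1.55 and 2.53 FPKM in Sham and 56.5, 79.7 and 73.8 FPKM in control MSC (log2 change 4.29 ± 0.22, limma adjusted p = 2.93e-07). Ly6i, a surface protein of the Ly6 family, was 0.18, 0.34 and 0.57 FPKM in Sham and 14.6, 19.9 and 48.2 FPKM in control MSC (log2 change 4.22 ± 0.45, limma adjusted p = 2.7e-05). Dmbt1, a secreted scavenger receptor of mucosal glands, was 0.4, 0.39 and 0.33 FPKM in Sham and 46.4, 21.9 and 21.8 FPKM in control MSC (log2 change 4.41 ± 0.59, limma adjusted p = 0.000109). These 9 genes had no overlap between the groups, which the rule that named them required.

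**Figure D2:**
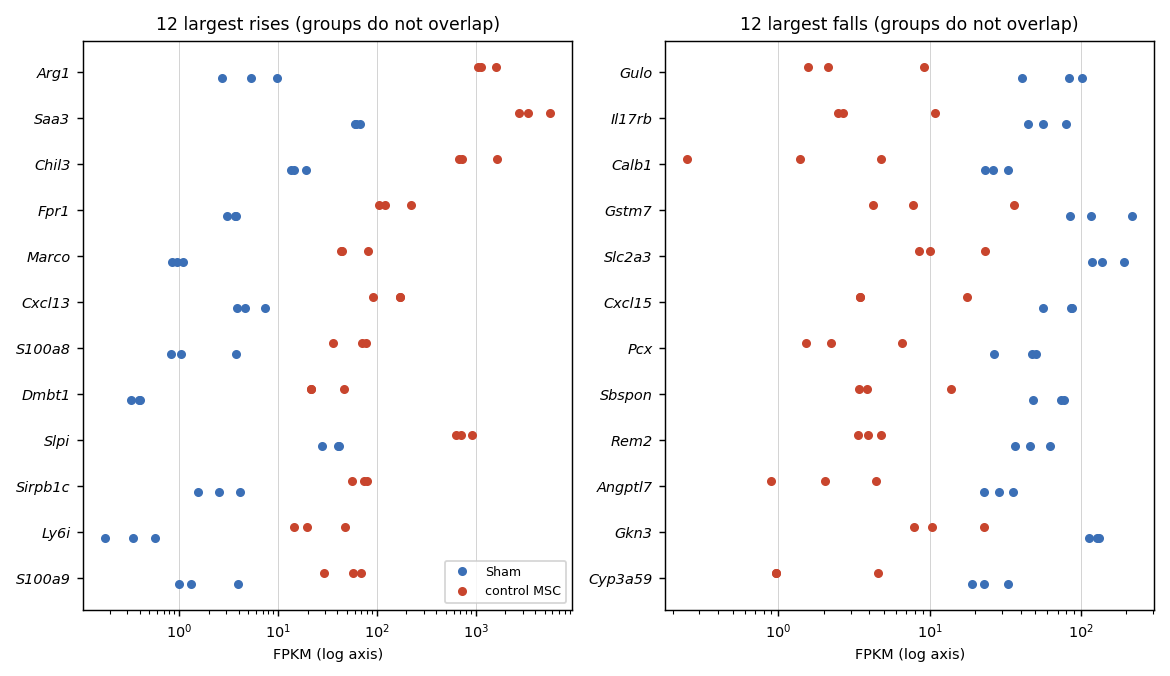
FPKM on a log axis in each of the 3 Sham (blue) and 3 control MSC (red) libraries for the 12 largest rises (left) and the 12 largest falls (right) among genes that passed the test, had groups that do not overlap and a mean of at least 5 FPKM in the higher group. Arg1 runs from 2.72 to 9.89 in Sham and is 1131, 1614 and 1050.3 in control MSC; among the falls, 1 control MSC library (replicate 1) lies nearest to Sham for 11 of 12 genes.

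Enzymes around arginine did not move as a block. Of 12 tested genes of arginine and polyamine metabolism, 5 rose and 4 fell (median 0.02). Odc1, which turns ornithine into the polyamine putrescine, was 121, 96.4 and 90.4 FPKM in Sham and 226, 244 and 269 FPKM in control MSC (log2 change 1.26 ± 0.16, limma adjusted p = 7.62e-05). Azin1, whose product spares ornithine decarboxylase from degradation, was 89.9, 105 and 101 FPKM in Sham and 51.3, 49.1 and 44.8 FPKM in control MSC (log2 change −1.01 ± 0.11, limma adjusted p = 4.26e-05). Ass1, which rebuilds arginine from citrulline, was 8.51, 6.15 and 6.97 FPKM in Sham and 24.8, 30.7 and 32.9 FPKM in control MSC (log2 change 1.89 ± 0.17, limma adjusted p = 7.75e-06). Odc1 and Ass1 were higher and Azin1 lower in every control MSC library.

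Lists that are often used as poles of macrophage activation both held more rises than falls. Of 20 tested pro-inflammatory (M1) markers, 12 rose and 3 fell (median 0.79). The falls in the list depended on the processing: 0 fell under median-ratio scaling (14 rose) and without Sham replicate 2 or control MSC replicate 3, and 1 without Sham replicate 1 or control MSC replicate 1 or 2. Of 20 tested alternative activation (M2) markers, 7 rose and 4 fell (median 0.39); 2 fell without Sham replicate 1 and under median-ratio scaling. In the M1 list, Il1a, the cell-bound form of interleukin 1, was 94.6, 71.5 and 90.0 FPKM in Sham and 257, 448 and 311 FPKM in control MSC (log2 change 1.95 ± 0.20, limma adjusted p = 2.47e-05). Fpr2, a second formyl peptide receptor, was 2.87, 1.62 and 1.66 FPKM in Sham and 22.2, 45.9 and 36.4 FPKM in control MSC (log2 change 3.52 ± 0.32, limma adjusted p = 1.02e-05). In the M2 list, Clec7a, which encodes the fungal glucan receptor dectin 1, was 106, 91 and 84.8 FPKM in Sham and 382, 367 and 431 FPKM in control MSC (log2 change 2.06 ± 0.11, limma adjusted p = 2.93e-07), whereas Myc, a growth-promoting transcription factor, was 104, 106 and 98 FPKM in Sham and 52.4, 47.1 and 42.2 FPKM in control MSC (log2 change −1.11 ± 0.13, limma adjusted p = 4.89e-05). All 4 genes had separate groups. A pair of M2 markers that are often measured were chosen here after their values were seen. Mrc1, the mannose receptor CD206, was 184, 138 and 127 FPKM in Sham and 126, 114 and 118 FPKM in control MSC and did not pass (log2 change −0.31 ± 0.14, limma adjusted p = 0.0826), although each control MSC value was below each Sham value; without Sham replicate 3 it passed (limma adjusted p = 0.0402). Retnla, whose small secreted product interleukin 4 induces, was 95.2, 37.6 and 60.5 FPKM in Sham and 128, 499 and 79.2 FPKM in control MSC and did not pass (log2 change 1.50 ± 0.67, limma adjusted p = 0.0748); its groups overlapped, and it passed under median-ratio scaling (limma adjusted p = 0.0366) and without control MSC replicate 3 (0.0287).

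Genes of recruited monocytes rose, and genes of tissue-resident macrophages were divided. Of 16 tested recruited monocyte genes, 11 rose and 1 fell (median 1.34). F10, coagulation factor X, was 2.12, 2.23 and 2.28 FPKM in Sham and 38.6, 52 and 41.8 FPKM in control MSC (log2 change 3.80 ± 0.20, limma adjusted p = 2.93e-07). Thbs1, the matrix glycoprotein thrombospondin 1, was 240.5, 234 and 258 FPKM in Sham and 1047, 1269.6 and 1187 FPKM in control MSC (log2 change 2.25 ± 0.12, limma adjusted p = 3.15e-07). Neither pair of groups overlapped. Of 15 tested resident genes, 6 rose and 4 fell (median 0.38); 3 rose without Sham replicate 3 or without control MSC replicate 2. Vsig4, a complement receptor of resident macrophages, was 2.1, 1.79 and 1.74 FPKM in Sham and 13.2, 11.8 and 11.4 FPKM in control MSC (log2 change 2.19 ± 0.31, limma adjusted p = 0.000158). Cd163, the scavenger receptor for haemoglobin bound to haptoglobin, was 7.83, 5.46 and 5 FPKM in Sham and 2.88, 2.52 and 2.3 FPKM in control MSC (log2 change −0.97 ± 0.21, limma adjusted p = 0.00172). Gas6, a ligand that bridges dying cells to TAM receptors, was 149.7, 178 and 205 FPKM in Sham and 58.8, 40.1 and 36.8 FPKM in control MSC (log2 change −1.97 ± 0.19, limma adjusted p = 1.57e-05). Vsig4 was higher in every control MSC library, while Cd163 and Gas6 were lower in every one; Cd163 did not pass with quantile scaling (limma adjusted p = 0.0597). Pf4, a platelet and macrophage chemokine, rose by 1.18 ± 0.23 (limma adjusted p = 0.00106).

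C-type lectin receptors, which bind sugars on microbes and dead cells, mostly rose. Of 13 tested, 9 rose and 3 fell (median 1.66); 1 fell under median-ratio scaling and without Sham replicate 1. Clec4d, a receptor for mycobacterial glycolipid, was 104, 65.1 and 65.8 FPKM in Sham and 384, 410.5 and 375 FPKM in control MSC (log2 change 2.33 ± 0.15, limma adjusted p = 9.79e-07). Clec4n, which encodes dectin 2, was 85.2, 82.5 and 63.2 FPKM in Sham and 233, 240.4 and 257 FPKM in control MSC (log2 change 1.66 ± 0.13, limma adjusted p = 4.45e-06), and Clec4a1 rose by 2.04 ± 0.14 (limma adjusted p = 1.48e-06). Cd209a, a homologue of DC-SIGN that is found on dendritic cells, went the other way, at 51.8, 39.1 and 46.9 FPKM in Sham and 4.11, 7.43 and 6.97 FPKM in control MSC (log2 change −2.73 ± 0.33, limma adjusted p = 5.57e-05). The groups were apart for each of these 4 genes. Scavenger and efferocytosis receptors were divided, with 8 higher and 6 lower of 14 tested (median 0.68). Msr1, the class A scavenger receptor for modified lipoprotein, was 52.1, 33.9 and 43.3 FPKM in Sham and 138, 219 and 165 FPKM in control MSC (log2 change 1.98 ± 0.18, limma adjusted p = 8.69e-06). Olr1, a receptor for oxidised lipoprotein, was 7.59, 2.63 and 3.71 FPKM in Sham and 27.2, 46 and 28.9 FPKM in control MSC (log2 change 2.69 ± 0.30, limma adjusted p = 3.85e-05). Both were higher in every control MSC library.

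Lysosomal genes rose broadly. Of 25 tested, 21 rose and 0 fell (median 0.90). The cysteine protease gene Ctsl was 159.8, 117 and 117 FPKM in Sham and 498, 581 and 457 FPKM in control MSC (log2 change 1.96 ± 0.16, limma adjusted p = 5.1e-06). Ctsz, another cathepsin, rose by 1.53 ± 0.13 (limma adjusted p = 5.68e-06), and Gusb, which encodes beta-glucuronidase, rose by 1.40 ± 0.13 (limma adjusted p = 1.38e-05). Lipid-associated and scar macrophage genes behaved alike, with 13 higher and 1 lower of 15 tested (median 1.01). Spp1, which encodes the matricellular protein osteopontin, was 243, 301 and 286 FPKM in Sham and 2648, 2297 and 2876 FPKM in control MSC (log2 change 3.23 ± 0.18, limma adjusted p = 4.41e-07). Apoc2, the cofactor of lipoprotein lipase, was 10.8, 9.49 and 9.69 FPKM in Sham and 119.6, 165 and 153 FPKM in control MSC (log2 change 3.73 ± 0.13, limma adjusted p = 1.66e-08). Plin2, the coat protein of lipid droplets, was 621, 616 and 529 FPKM in Sham and 1369, 1562 and 1506 FPKM in control MSC (log2 change 1.33 ± 0.14, limma adjusted p = 2.38e-05). No Sham library reached the lowest control MSC library for Ctsl, Spp1, Apoc2 or Plin2.

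Sterol genes split by function. Of 19 tested genes of cholesterol synthesis, 2 rose and 12 fell (median −0.59); under median-ratio scaling 7 fell and the median was −0.28. Pmvk, a kinase of the mevalonate pathway, was 34.4, 58.7 and 51.5 FPKM in Sham and 15.9, 12.6 and 10.6 FPKM in control MSC (log2 change −1.79 ± 0.21, limma adjusted p = 4.86e-05). Lss, which closes the sterol ring, was 5.17, 4.77 and 10.7 FPKM in Sham and 1.2, 1.16 and 1.24 FPKM in control MSC (log2 change −1.76 ± 0.23, limma adjusted p = 8.9e-05). Fdft1, which encodes squalene synthase, was 13.6, 21.8 and 19.5 FPKM in Sham and 7.44, 3.93 and 5.56 FPKM in control MSC (log2 change −1.55 ± 0.25, limma adjusted p = 0.000333), and Hsd17b7, of a later step, fell (log2 change −1.08 ± 0.18, limma adjusted p = 0.000463). All 4 were lower in every control MSC library. Genes of sterol efflux and lipid handling gave 6 higher and 2 lower of 11 tested (median 0.64). Nr1h3, the oxysterol receptor LXR alpha, was 4.27, 3.28 and 3.42 FPKM in Sham and 9.09, 15.3 and 9.51 FPKM in control MSC (log2 change 1.37 ± 0.19, limma adjusted p = 0.000153). Its target Abca1, a cholesterol exporter, was 49.1, 52 and 44 FPKM in Sham and 83.5, 86.4 and 81.1 FPKM in control MSC (log2 change 0.78 ± 0.11, limma adjusted p = 0.000168). Scd2, a fatty acid desaturase, was 11.8, 11.4 and 13.5 FPKM in Sham and 4.66, 4.2 and 5.63 FPKM in control MSC (log2 change −1.19 ± 0.19, limma adjusted p = 0.000312). Nr1h3 and Abca1 were thus higher and Scd2 lower without overlap.

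Among cytokines, 11 of 18 tested genes rose and 1 fell (median 1.10). Il1b, the secreted interleukin 1, was 192, 220.0 and 195 FPKM in Sham and 609, 809 and 619 FPKM in control MSC (log2 change 1.73 ± 0.24, limma adjusted p = 0.000137). Osm, which encodes oncostatin M of the interleukin 6 family, was 30.8, 27.4 and 24.4 FPKM in Sham and 66.7, 88.2 and 76.3 FPKM in control MSC (log2 change 1.45 ± 0.17, limma adjusted p = 5.08e-05). Ebi3, the shared chain of interleukins 27 and 35, was 19.9, 17.3 and 15.5 FPKM in Sham and 51.5, 75.8 and 70.6 FPKM in control MSC (log2 change 1.84 ± 0.18, limma adjusted p = 1.54e-05). Each of the 3 was higher in every control MSC library. CC chemokines gave 4 higher and 1 lower of 12 tested (median 0.19); 3 fell without Sham replicate 2 and 2 without IUA replicate 2 or 3. Ccl6 was 286, 184 and 215 FPKM in Sham and 732, 926 and 897 FPKM in control MSC (log2 change 1.91 ± 0.15, limma adjusted p = 4.31e-06), and Ccl9, from the same gene cluster, rose by 1.84 ± 0.15 (limma adjusted p = 4.82e-06). Ccl24, an attractant of eosinophils, was 4.66, 6.01 and 3.7 FPKM in Sham and 40.9, 40.9 and 27 FPKM in control MSC (log2 change 2.68 ± 0.41, limma adjusted p = 0.000241), and Ccl3, also called MIP-1 alpha, rose by 0.90 ± 0.24 (limma adjusted p = 0.00749). The groups did not overlap for these 4, as for 66.7% of all tested genes. CXC chemokines gave 8 higher and 3 lower of 13 tested (median 1.22). The neutrophil attractant Cxcl3 was 24.2, 16.8 and 21 FPKM in Sham and 113, 147 and 106 FPKM in control MSC (log2 change 2.50 ± 0.17, limma adjusted p = 1.48e-06), and Cxcl2 rose by 1.22 ± 0.21 (limma adjusted p = 0.000438).

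Receptors of microbial products gave 9 higher and 1 lower of 14 tested (median 0.93). Tlr13, a sensor of bacterial ribosomal RNA, was 9.69, 6.56 and 8.28 FPKM in Sham and 35.2, 36.4 and 37.9 FPKM in control MSC (log2 change 2.04 ± 0.15, limma adjusted p = 1.85e-06). Cd14, the co-receptor for lipopolysaccharide, was 3406, 3088 and 2871 FPKM in Sham and 6929, 7579.5 and 7095 FPKM in control MSC (log2 change 1.21 ± 0.12, limma adjusted p = 1.38e-05). Both lay higher in every control MSC library. NF-kB subunits, inhibitors and targets gave 7 higher and 0 lower of 15 tested (median 0.34). Traf1, a signalling adaptor and NF-kB target, was 22.2, 16.3 and 19.4 FPKM in Sham and 43.2, 46.6 and 45.9 FPKM in control MSC (log2 change 1.19 ± 0.17, limma adjusted p = 0.000159). Tnfaip3, the feedback inhibitor A20, rose by 0.84 ± 0.20 (limma adjusted p = 0.00358), the subunit gene Rel by 0.48 ± 0.12 (limma adjusted p = 0.00392) and the inhibitor gene Nfkbie by 0.61 ± 0.16 (limma adjusted p = 0.00541). Enzymes of prostaglandin and leukotriene synthesis gave 7 higher and 4 lower of 15 tested (median 0.41); 2 fell under median-ratio scaling. Ptges, the inducible prostaglandin E synthase, was 2.46, 2.25 and 1.87 FPKM in Sham and 24.8, 51.5 and 27 FPKM in control MSC (log2 change 3.40 ± 0.34, limma adjusted p = 1.76e-05). Alox5ap, the partner protein of 5-lipoxygenase, was 58.1, 44.3 and 45 FPKM in Sham and 149, 182 and 171 FPKM in control MSC (log2 change 1.75 ± 0.12, limma adjusted p = 1.32e-06). Pla2g7, which inactivates platelet-activating factor, was 204, 178 and 197 FPKM in Sham and 596, 626 and 651 FPKM in control MSC (log2 change 1.69 ± 0.11, limma adjusted p = 8.98e-07), and Tbxas1, thromboxane synthase, rose by 1.14 ± 0.13 (limma adjusted p = 4.68e-05). No value of a Sham library for Ptges, Alox5ap or Pla2g7 reached the control MSC range.

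Antigen presentation differed by class. Of 14 tested genes of MHC class I and the immunoproteasome, 8 rose and 0 fell (median 0.43). B2m, the light chain of class I molecules, was 2689, 2064 and 1786 FPKM in Sham and 3864, 4390.5 and 4542 FPKM in control MSC (log2 change 0.99 ± 0.14, limma adjusted p = 0.00018), and the immunoproteasome gene Psmb8 was 126, 119 and 103 FPKM in Sham and 169.8, 224 and 219 FPKM in control MSC (log2 change 0.80 ± 0.13, limma adjusted p = 0.000282). H2-K1 rose by 0.57 ± 0.10 (limma adjusted p = 0.000775) and Psmb10 by 0.73 ± 0.11 (limma adjusted p = 0.000192). The class II list had 1 rise and 1 fall among 8 tested (median 0.02). Under median-ratio scaling 2 rose and 0 fell (median 0.37). H2-DMa, which loads peptides onto class II molecules, rose by 0.57 ± 0.13 (limma adjusted p = 0.00274), and H2-Oa, which restrains that loading, fell (log2 change −0.65 ± 0.23, limma adjusted p = 0.0266; 0.103 under median-ratio scaling). Cd74, the invariant chain, was 10252, 10491 and 9304 FPKM in Sham and 8832, 9298 and 11963 FPKM in control MSC and did not pass (log2 change −0.01 ± 0.16, limma adjusted p = 0.965). H2-Ab1 (log2 change 0.06 ± 0.17, limma adjusted p = 0.789), H2-Eb1 (log2 change −0.17 ± 0.16, limma adjusted p = 0.363) and H2-DMb1 (log2 change 0.26 ± 0.12, limma adjusted p = 0.0815) did not pass either. The groups of Cd74, H2-Ab1 and H2-Eb1 overlapped.

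In the list of interferon-gamma-induced genes, most members fell with FPKM as deposited, unlike in the cytokine, receptor and MHC class I lists. Of 17 tested, 2 rose and 12 fell (median −0.89); under median-ratio scaling 2 rose and 8 fell (median −0.55), and 8 to 14 fell when any 1 library was left out. Many of these genes carry a short promoter element for interferon-regulated factors, the interferon-stimulated response element (ISRE), and some a gamma-activated site (GAS). RefSeq promoters of the build GRCm38.p6, from 250 bases before to 50 after the gene start, were searched for GAAA, any 2 bases, GAAA on both strands (ISRE core) and for TTC, any 3 bases, GAA (GAS core, its own reverse complement). An entry was found for 13 of the 17 genes. The ISRE core lay in 11 of the 13 (84.62%) and the GAS core in 7 (53.85%), against 3.99% and 9.55% of all 27025 symbols with a promoter; matches of the 2 cores overlapped in 0 of the 13 and in 23 of all. The 8 members that fell and hold an ISRE core are shown with up to 25 bases on each side of the match, cut at the gene start and read 5′ to 3′ on the gene's strand; capitals mark the match.
Igtp, chr11:58199497-58199555, plus strand: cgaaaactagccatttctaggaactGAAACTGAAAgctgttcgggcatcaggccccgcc
Irgm2, chr11:58214888-58214947, plus strand: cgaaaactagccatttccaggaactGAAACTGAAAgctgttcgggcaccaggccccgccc
Irgm1, chr11:48871421-48871475, minus strand: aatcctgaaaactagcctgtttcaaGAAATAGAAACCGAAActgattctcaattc
Tgtp1, chr11:48992289-48992348, minus strand: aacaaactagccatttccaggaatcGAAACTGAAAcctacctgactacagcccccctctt
Tgtp2, chr11:49064248-49064307, minus strand: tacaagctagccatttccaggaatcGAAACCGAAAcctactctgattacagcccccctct
Gbp3, chr3:142559974-142560039, plus strand: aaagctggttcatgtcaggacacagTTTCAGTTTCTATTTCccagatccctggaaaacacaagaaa
Gbp5, chr3:142496744-142496803, plus strand: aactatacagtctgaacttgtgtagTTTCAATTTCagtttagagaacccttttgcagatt
Cxcl10, chr5:92349068-92349127, minus strand: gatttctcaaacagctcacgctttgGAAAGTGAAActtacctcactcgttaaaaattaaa
Compared position by position with no gap, the Igtp and Irgm2 windows shared 57 of 59 bases, and the Tgtp1 and Tgtp2 windows 44 of 60. Gbp2, Gbp7 and Socs1 hold an ISRE core too and were not called. Among tested genes with a promoter entry, the core lay in 3.65% of those lower, 5.51% of those higher and 3.79% of those not called. A match describes the letters only and shows no binding.

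Of the genes with these promoters, the immunity-related GTPases, which attack the vacuoles of intracellular parasites, fell. Igtp was 77.9, 107 and 52.8 FPKM in Sham and 26.8, 35.4 and 27.6 FPKM in control MSC (log2 change −1.33 ± 0.26, limma adjusted p = 0.0011). Irgm1, a regulator of that family, was 59.9, 94.2 and 66.7 FPKM in Sham and 42.3, 32.5 and 27 FPKM in control MSC (log2 change −1.09 ± 0.21, limma adjusted p = 0.00114). Irgm2 was 19.4, 28.2 and 11.1 FPKM in Sham and 6.93, 7.87 and 6.99 FPKM in control MSC (log2 change −1.23 ± 0.28, limma adjusted p = 0.00258). For these 3 genes every control MSC library was below every Sham library. Tgtp1 was 41.5, 64.2 and 25.1 FPKM in Sham and 12, 8.67 and 8.27 FPKM in control MSC (log2 change −1.99 ± 0.39, limma adjusted p = 0.0012) and Tgtp2 was 92.2, 120.3 and 53.4 FPKM in Sham and 34.2, 38.8 and 32.4 FPKM in control MSC (log2 change −1.24 ± 0.27, limma adjusted p = 0.00216); these 2 near-identical copies may share reads, so their separate values are uncertain. Gbp3, of the guanylate-binding proteins, was 46.3, 58 and 33.3 FPKM in Sham and 24.8, 23.9 and 22.3 FPKM in control MSC (log2 change −0.89 ± 0.19, limma adjusted p = 0.00163). Gbp5 (log2 change −0.79 ± 0.29, limma adjusted p = 0.034) and the chemokine gene Cxcl10 (log2 change −0.77 ± 0.28, limma adjusted p = 0.0359) passed with FPKM as deposited and not under median-ratio scaling (limma adjusted p = 0.168 and 0.212). Without control MSC replicate 2 their values were 0.0591 and 0.145, and without control MSC replicate 3 they were 0.11 and 0.112. Without Sham replicate 1 they were 0.0606 and 0.132, and without Sham replicate 2 they were 0.151 and 0.0641. Iigp1, another member of the GTPase family, had no promoter entry and was 145, 178 and 71.7 FPKM in Sham and 30.1, 24.4 and 24.1 FPKM in control MSC (log2 change −2.20 ± 0.26, limma adjusted p = 5.08e-05). Sham replicate 2 was the highest of its group for 14 of the 17 genes and Sham replicate 3 the lowest for 15. Cxcl9, a T cell attractant, was among the rises, at 1.13, 1.5 and 1.09 FPKM in Sham and 3.83, 6.44 and 7.27 FPKM in control MSC (log2 change 1.58 ± 0.20, limma adjusted p = 8.12e-05). The Cxcl9 promoter held no ISRE core. IUA means lay between the Sham and control MSC means for Igtp (42.5), Irgm1 (44) and Iigp1 (57.7), and control MSC did not pass against IUA for them (limma adjusted p = 0.324, 0.357 and 0.0589).

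Type I interferon-stimulated genes gave 3 higher and 8 lower of 20 tested (median −0.50). These counts were near the shares over all tested genes, 14.1% higher and 42.7% lower. Under median-ratio scaling 5 rose and 4 fell. Of 15 with a promoter entry, 9 (60%) held an ISRE core. Ifi44, an interferon-induced cytosolic protein, was 8.41, 10.8 and 8.75 FPKM in Sham and 3.9, 3.46 and 3.71 FPKM in control MSC (log2 change −1.13 ± 0.19, limma adjusted p = 0.00037). Ddx58, which encodes the RNA sensor RIG-I, was 8.81, 11.6 and 7.98 FPKM in Sham and 5.87, 5 and 4.31 FPKM in control MSC (log2 change −0.78 ± 0.16, limma adjusted p = 0.0015). Oas1a, a sensor of double-stranded RNA, was 28.1, 27.8 and 31.4 FPKM in Sham and 43.1, 51.7 and 45 FPKM in control MSC (log2 change 0.66 ± 0.11, limma adjusted p = 0.000523). Zbp1, a sensor of Z-form nucleic acid, was 8.97, 8.45 and 12.5 FPKM in Sham and 16.3, 29.1 and 20.3 FPKM in control MSC (log2 change 1.04 ± 0.21, limma adjusted p = 0.00144). The first pair was lower and the second pair higher in every control MSC library, and Ddx58 did not pass with quantile scaling (limma adjusted p = 0.0634). Control MSC replicate 1 was the highest of its group for 14 of the 20 tested genes, and without it 11 fell in place of 8.

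Complement genes gave 9 higher and 4 lower of 17 tested (median 0.72); 2 fell under median-ratio scaling. Cfp, properdin, which stabilises the alternative pathway convertase, was 253, 119 and 154 FPKM in Sham and 769.5, 1048 and 886 FPKM in control MSC (log2 change 2.42 ± 0.27, limma adjusted p = 3.99e-05), and C3ar1, the receptor of the fragment C3a, rose by 1.11 ± 0.14 (limma adjusted p = 8.36e-05). Cd55, an inhibitor of complement on the cell surface, was 53.4, 72.7 and 77.8 FPKM in Sham and 23.8, 14 and 21.6 FPKM in control MSC (log2 change −1.74 ± 0.23, limma adjusted p = 0.000112). Coagulation and fibrinolysis genes gave 8 higher and 3 lower of 15 tested (median 0.50). F7, coagulation factor VII, was 0.11, 0.8 and 2.51 FPKM in Sham and 17.5, 24.6 and 18.5 FPKM in control MSC (log2 change 3.46 ± 0.37, limma adjusted p = 3.03e-05). Plat, tissue plasminogen activator, which starts the removal of fibrin, was 624, 781 and 762 FPKM in Sham and 199.8, 91.3 and 64.5 FPKM in control MSC (log2 change −2.76 ± 0.34, limma adjusted p = 6.77e-05). Cfp and F7 were higher, and Cd55 and Plat lower, in every control MSC library.

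Genes of matrix proteases mostly rose. Matrix metalloproteinases and inhibitors gave 8 higher and 2 lower of 13 tested (median 1.12). Mmp9, gelatinase B, was 5.8, 3.47 and 5.5 FPKM in Sham and 39.8, 68.3 and 53.2 FPKM in control MSC (log2 change 3.20 ± 0.26, limma adjusted p = 5.1e-06). Mmp8, the neutrophil collagenase, was 0.3, 0.24 and 0.24 FPKM in Sham and 8.52, 21.8 and 11.6 FPKM in control MSC (log2 change 3.47 ± 0.34, limma adjusted p = 1.75e-05). Timp1 was 29, 15.9 and 13.1 FPKM in Sham and 63.9, 92.9 and 45 FPKM in control MSC (log2 change 1.76 ± 0.30, limma adjusted p = 0.000502) and Timp3 was 189.9, 224 and 184 FPKM in Sham and 64.9, 35.9 and 30.7 FPKM in control MSC (log2 change −2.23 ± 0.26, limma adjusted p = 5.3e-05), so these 2 inhibitors moved in opposite directions without overlap. Collagen and matrix genes gave 1 higher and 14 lower of 22 tested (median −1.03); 8 fell without Sham replicate 1, 9 without control MSC replicate 2 and 8 under median-ratio scaling. Fn1, fibronectin, was the member that rose, at 38.5, 30.7 and 35.9 FPKM in Sham and 151, 189.6 and 129 FPKM in control MSC (log2 change 2.12 ± 0.25, limma adjusted p = 4.94e-05). Dcn, the collagen-binding proteoglycan decorin, was 551, 306 and 399 FPKM in Sham and 78.6, 68.7 and 121 FPKM in control MSC (log2 change −2.22 ± 0.40, limma adjusted p = 0.000629), and Fbn1, fibrillin 1, fell (log2 change −1.29 ± 0.22, limma adjusted p = 0.000455). Sham replicate 1 held the highest Dcn value, and no control MSC library reached the lowest Sham value.

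Growth factor genes of repair were divided, with 5 higher and 5 lower of 15 tested (median −0.21). Over all tested genes 14.1% were higher and 42.7% lower. The list median was 0.04 under median-ratio scaling, a change of sign. Vegfa, which drives the growth of vessels, was 19.1, 22.4 and 17.5 FPKM in Sham and 58.7, 68 and 66 FPKM in control MSC (log2 change 1.66 ± 0.14, limma adjusted p = 5.91e-06). Areg, a ligand of the EGF receptor, was 5.4, 3.47 and 3.46 FPKM in Sham and 9.71, 11.6 and 10.2 FPKM in control MSC (log2 change 1.19 ± 0.20, limma adjusted p = 0.000397), and Grn, progranulin, rose by 0.96 ± 0.13 (limma adjusted p = 0.000143). Pdgfa, a mitogen for stromal cells, was 25.8, 25.2 and 32.3 FPKM in Sham and 15.8, 10.5 and 9.66 FPKM in control MSC (log2 change −1.17 ± 0.19, limma adjusted p = 0.000309). Vegfa and Areg were higher and Pdgfa lower in every control MSC library. Genes of the TGF-beta pathway gave 1 higher and 5 lower of 14 tested (median −0.32). That median was close to the all-gene −0.30, and the share of falls was below the all-gene 42.7%. Without Sham replicate 2, or without any 1 of the control MSC replicates 1, 2 and 3, 3 fell. Under median-ratio scaling 3 rose and 2 fell. The co-receptor gene Tgfbr3 was 11.1, 7.98 and 6.06 FPKM in Sham and 2.02, 1.49 and 1.63 FPKM in control MSC (log2 change −1.76 ± 0.22, limma adjusted p = 6.83e-05), and the receptor gene Tgfbr2 was 23.2, 28 and 25.6 FPKM in Sham and 15.4, 12.2 and 10.4 FPKM in control MSC (log2 change −0.98 ± 0.18, limma adjusted p = 0.00069). The ligand gene Tgfb3 was 8.99, 5.67 and 6.07 FPKM in Sham and 11.8, 11.9 and 10.6 FPKM in control MSC (log2 change 0.67 ± 0.19, limma adjusted p = 0.00957). The 2 receptors were lower and the ligand higher in every control MSC library. Tgfbi, a matrix protein that TGF-beta induces, fell (log2 change −0.48 ± 0.14, limma adjusted p = 0.0135; 0.475 under median-ratio scaling).

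Genes of glycolysis mostly rose. Glycolysis genes gave 10 higher and 1 lower of 16 tested (median 0.58). Eno1, enolase, was 338, 291 and 331 FPKM in Sham and 846, 1099.5 and 962 FPKM in control MSC (log2 change 1.59 ± 0.16, limma adjusted p = 2.19e-05). Pgk1, phosphoglycerate kinase, was 71.2, 69.8 and 76.5 FPKM in Sham and 159, 203 and 190.2 FPKM in control MSC (log2 change 1.33 ± 0.11, limma adjusted p = 6.23e-06). Pgam1 rose by 0.96 ± 0.11 (limma adjusted p = 4.6e-05) and Gapdh, often used as a reference gene, by 0.88 ± 0.15 (limma adjusted p = 0.000539). Respiratory chain genes encoded in the nucleus gave 1 higher and 15 lower of 28 tested (median −0.31). That median was close to the all-gene −0.30, and 42.7% of all tested genes were lower. Under median-ratio scaling 3 rose and 3 fell and the list median changed sign to 0.03. Ndufa4, a subunit of cytochrome oxidase, was 171, 150.4 and 148 FPKM in Sham and 79, 49.9 and 63 FPKM in control MSC (log2 change −1.30 ± 0.19, limma adjusted p = 0.000166), and Ndufv1 and Ndufb9, of complex I, fell, with log2 changes of −0.65 ± 0.12 and −0.63 ± 0.12 (limma adjusted p = 0.000778 and 0.001). Atp5a1, of ATP synthase, fell (log2 change −0.50 ± 0.09, limma adjusted p = 0.000794; 0.139 under median-ratio scaling). Those encoded in the mitochondrion gave 0 higher and 7 lower of 13 tested (median −0.43); 4 fell without control MSC replicate 2 and 1 under median-ratio scaling. mt-Nd1 was 1449.7, 1494 and 1454 FPKM in Sham and 1045, 807 and 946 FPKM in control MSC (log2 change −0.66 ± 0.13, limma adjusted p = 0.00112), while mt-Cytb, mt-Co3 and mt-Atp6 fell, with log2 changes of −0.72 ± 0.15, −0.49 ± 0.11 and −0.56 ± 0.14 and lost the call under median-ratio scaling (limma adjusted p = 0.0509, 0.294 and 0.215).

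Iron and haem genes gave 10 higher and 3 lower of 16 tested (median 0.65). Slc11a1, which pumps metal ions out of the phagosome, was 132, 129.8 and 108 FPKM in Sham and 357, 464 and 405 FPKM in control MSC (log2 change 1.71 ± 0.16, limma adjusted p = 1.06e-05). Blvrb, which reduces biliverdin, was 53.5, 32.1 and 34.4 FPKM in Sham and 101, 125 and 110.2 FPKM in control MSC (log2 change 1.49 ± 0.18, limma adjusted p = 5.57e-05), and Cp, the ferroxidase ceruloplasmin, rose by 1.47 ± 0.18 (limma adjusted p = 6.09e-05). Antioxidant genes that NRF2 controls gave 7 higher and 2 lower of 13 tested (median 0.29). Slc7a11, the cystine importer, was 30.8, 20.1 and 28.7 FPKM in Sham and 97.2, 113 and 113 FPKM in control MSC (log2 change 2.00 ± 0.21, limma adjusted p = 2.48e-05). Hmox1, which opens the haem ring, was 971, 762 and 792 FPKM in Sham and 1376, 1387 and 1465 FPKM in control MSC (log2 change 0.75 ± 0.13, limma adjusted p = 0.000571), and the thioredoxin gene Txn1 rose by 1.01 ± 0.12 (limma adjusted p = 5.1e-05). Gstm1, a glutathione transferase, was 406, 686 and 595 FPKM in Sham and 224, 150.4 and 149 FPKM in control MSC (log2 change −1.68 ± 0.28, limma adjusted p = 0.000403). Slc11a1, Blvrb, Slc7a11 and Hmox1 were higher and Gstm1 lower in every control MSC library.

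Heat shock genes gave 0 higher and 8 lower of 12 tested (median −0.67). Under median-ratio scaling 5 fell (median −0.32). For each list of this paragraph, the all-gene shares were 14.1% higher and 42.7% lower. Under median-ratio scaling the all-gene counts were 2887 higher and 2952 lower of 11604. Hspb1, a small chaperone, was 706, 695 and 603 FPKM in Sham and 231, 143 and 174 FPKM in control MSC (log2 change −1.89 ± 0.16, limma adjusted p = 7.14e-06). Bag3, its co-chaperone in selective autophagy, was 86.7, 93 and 93.1 FPKM in Sham and 37.2, 33 and 29.6 FPKM in control MSC (log2 change −1.43 ± 0.21, limma adjusted p = 0.000187). Dnajb1 and Dnaja1, of the DnaJ family, fell, with log2 changes of −1.12 ± 0.13 and −0.70 ± 0.11 (limma adjusted p = 5.63e-05 and 0.000249). Immediate-early genes gave 2 higher and 11 lower of 20 tested (median −0.50); under median-ratio scaling 3 rose and 7 fell (median −0.16). Nr4a1, an orphan nuclear receptor, was 502, 701 and 578 FPKM in Sham and 184, 158 and 123 FPKM in control MSC (log2 change −1.94 ± 0.33, limma adjusted p = 0.000488), and Fosb and Fosl1 fell, with log2 changes of −1.39 ± 0.17 and −1.98 ± 0.29 (limma adjusted p = 5.9e-05 and 0.000183). Fos itself was 260.3, 281 and 252 FPKM in Sham and 339, 419 and 364 FPKM in control MSC (log2 change 0.50 ± 0.10, limma adjusted p = 0.00103), so members of 1 transcription factor family moved in opposite directions. Unfolded protein response genes gave 3 higher and 5 lower of 16 tested (median 0.03); under median-ratio scaling 9 rose and 1 fell, and 1 rose without control MSC replicate 3. Xbp1, the transcription factor of that response, was 344, 401 and 401 FPKM in Sham and 257, 213 and 213 FPKM in control MSC (log2 change −0.75 ± 0.10, limma adjusted p = 0.000111), and Sdf2l1, a chaperone partner in the endoplasmic reticulum, rose by 0.77 ± 0.12 (limma adjusted p = 0.000307). Herpud1 and Dnajc3 fell, with log2 changes of −0.52 ± 0.12 and −0.43 ± 0.11 (limma adjusted p = 0.003 and 0.00452) and lost the call under median-ratio scaling (limma adjusted p = 0.275 and 0.48).

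Cytosolic ribosomal protein genes gave 0 higher and 13 lower of 34 tested (median −0.20), a median close to that of all genes. Among all tested genes 14.1% were higher and 42.7% lower. The direction turned under median-ratio scaling, with 10 higher, 0 lower and a median of 0.14; without Sham replicate 1 or control MSC replicate 3, 8 fell. The 4 members of smallest p, Rps7, Rpl4, Rps18 and Rpl15, fell, with log2 changes of −0.56 ± 0.09, −0.46 ± 0.09, −0.44 ± 0.09 and −0.42 ± 0.09 and none passed under median-ratio scaling (limma adjusted p = 0.0723, 0.339, 0.407 and 0.498). Cell cycle genes gave 4 higher and 1 lower of 17 tested (median 0.31); 1 rose without Sham replicate 3 or control MSC replicate 3, 2 without Sham replicate 2, and 10 under median-ratio scaling. Ccnb1, a cyclin of mitosis, was 2.81, 1.79 and 1.38 FPKM in Sham and 4.4, 4.7 and 7.05 FPKM in control MSC (log2 change 1.10 ± 0.24, limma adjusted p = 0.00238). Cdk1, its kinase, was 7.78, 5.67 and 3.06 FPKM in Sham and 8.32, 8.01 and 14.3 FPKM in control MSC (log2 change 0.81 ± 0.27, limma adjusted p = 0.0243). Ccnb2 rose by 0.95 ± 0.30 (limma adjusted p = 0.0169). Without control MSC replicate 3 neither Cdk1 (limma adjusted p = 0.11) nor Ccnb2 (0.0731) passed, and without Sham replicate 3 likewise (0.108 and 0.0665), whereas Top2a, a topoisomerase of dividing cells, fell (log2 change −0.54 ± 0.19, limma adjusted p = 0.0257; 0.307 under median-ratio scaling).

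**Figure D3:**
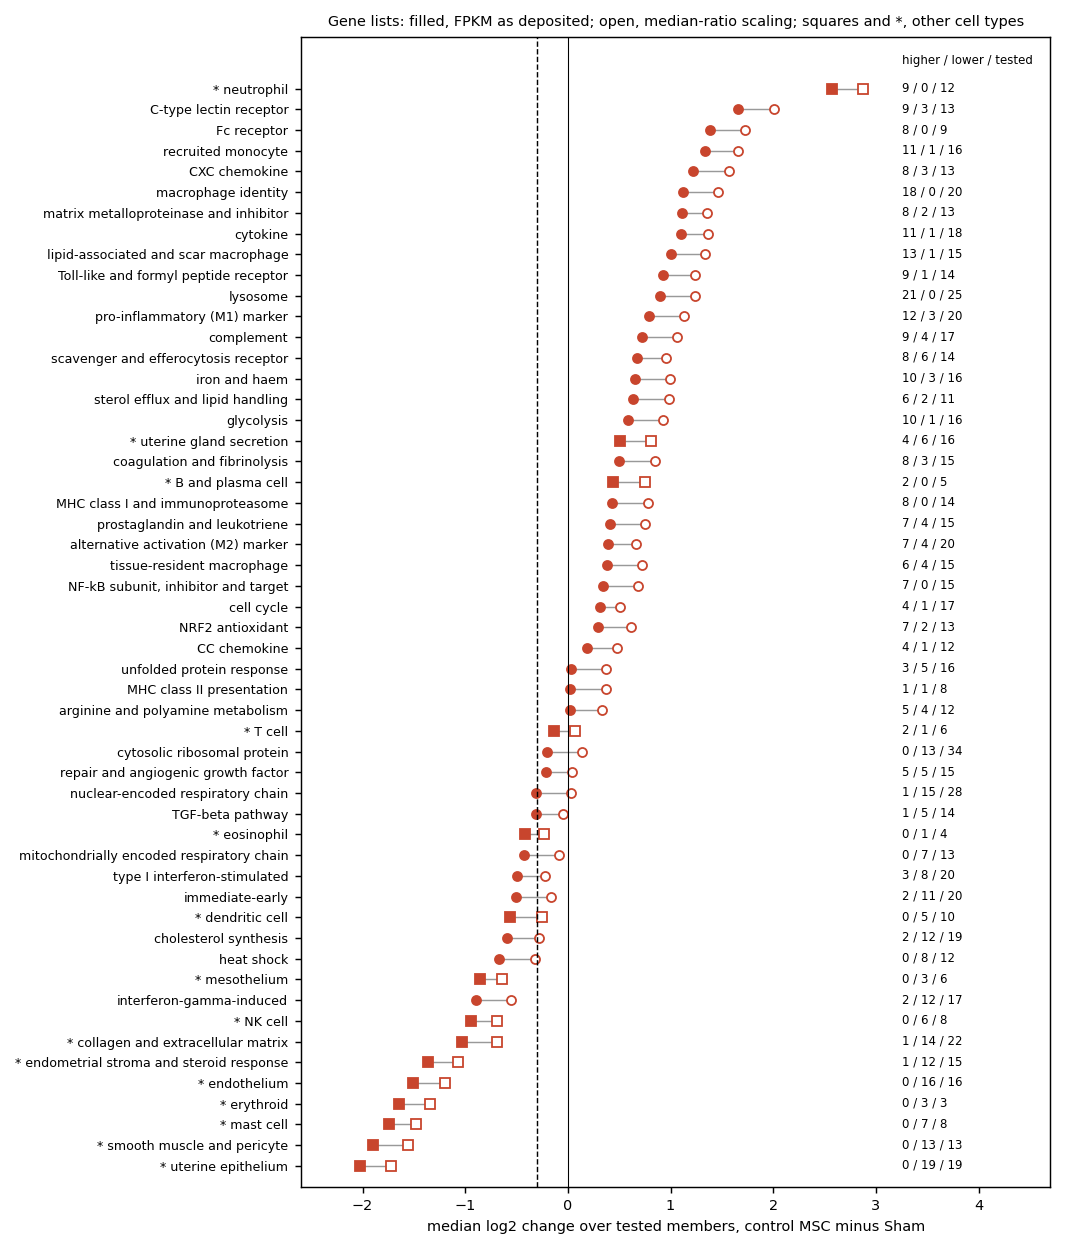
Median log2 change over the tested members of each gene list, control MSC minus Sham (x axis); filled symbols are FPKM as deposited, open symbols are median-ratio scaling, squares and asterisks mark lists of other cell types, and the dashed line is the median of all tested genes, −0.30. Numbers at the right are members higher, lower and tested; neutrophil and C-type lectin lists have the highest medians (2.57 and 1.66) and the uterine epithelium list the lowest (−2.02).

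Genes that uterine epithelium is known for fell, with the lowest median of the 53 lists. All 19 tested epithelial markers fell (median −2.02; 18 under median-ratio scaling, 18 or 19 when any 1 library was left out). Krt18, a keratin of simple epithelia and among the 10 most abundant genes of Sham, was 3782, 5625 and 6230.1 FPKM in Sham and 1543, 621 and 690.0 FPKM in control MSC (log2 change −2.55 ± 0.44, limma adjusted p = 0.000517). Pax8, a transcription factor of Müllerian epithelium, was 22.5, 39.6 and 33.3 FPKM in Sham and 9.38, 3.69 and 6.58 FPKM in control MSC (log2 change −2.16 ± 0.33, limma adjusted p = 0.000244). Msx1, a homeobox gene of uterine receptivity, was 19.2, 24.2 and 23.8 FPKM in Sham and 6.89, 2.25 and 2.01 FPKM in control MSC (log2 change −2.45 ± 0.37, limma adjusted p = 0.000218), and Ovol2, a transcription factor of epithelia, fell (log2 change −1.78 ± 0.28, limma adjusted p = 0.00031). The groups were apart, and control MSC replicate 1 held the highest value of its group for each of these genes.

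The 12 leading falls are given next, and which cells they came from was not tested. Gulo, an enzyme of vitamin C synthesis, was 40.8, 102 and 83.3 FPKM in Sham and 9.18, 2.13 and 1.58 FPKM in control MSC (log2 change −4.04 ± 0.59, limma adjusted p = 0.00019). Il17rb, the receptor chain for interleukin 25, was 44.9, 56.2 and 79.3 FPKM in Sham and 10.9, 2.66 and 2.48 FPKM in control MSC (log2 change −3.48 ± 0.46, limma adjusted p = 9.75e-05). Calb1, a calcium buffer of the uterine epithelium, was 23.2, 33.2 and 26.2 FPKM in Sham and 4.79, 0.25 and 1.38 FPKM in control MSC (log2 change −3.45 ± 0.50, limma adjusted p = 0.000185). Control MSC replicate 1 held the highest value of its group for each of these. Slc2a3, a glucose transporter, was 118, 193 and 137 FPKM in Sham and 23.1, 8.5 and 9.99 FPKM in control MSC (log2 change −3.44 ± 0.46, limma adjusted p = 0.00011). Gstm7, a glutathione transferase, was 84.6, 218 and 117 FPKM in Sham and 36, 7.81 and 4.23 FPKM in control MSC (log2 change −3.45 ± 0.77, limma adjusted p = 0.00241). Cxcl15, a chemokine of mucosal epithelia, was 56.5, 86.1 and 87 FPKM in Sham and 17.6, 3.45 and 3.47 FPKM in control MSC (log2 change −3.41 ± 0.61, limma adjusted p = 0.000638). In all 3, the Sham libraries lay above every control MSC library, which the rule for the leading falls required. Pcx, the pyruvate carboxylase, Sbspon, a secreted thrombospondin-type protein, and Rem2, a small GTPase, fell, with log2 changes of −3.39 ± 0.47, −3.28 ± 0.57 and −3.28 ± 0.46 (limma adjusted p = 0.000135, 0.000526 and 0.000146). Angptl7, an angiopoietin-like secreted protein, Gkn3, a gastrokine, and Cyp3a59, a cytochrome P450, fell, with log2 changes of −3.24 ± 0.37, −3.23 ± 0.37 and −3.19 ± 0.49 (limma adjusted p = 4.54e-05, 4.38e-05 and 0.00026). Over the 12 falls, control MSC replicate 1 was the highest of its group in 11 and Sham replicate 1 the lowest of its group in 9.

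Genes that uterine glands secrete were divided, whereas all tested epithelial markers fell. The list gave 4 higher and 6 lower of 16 tested (median 0.51), or 6 higher and 5 lower under median-ratio scaling (median 0.81). Of all tested genes, 14.1% were higher and 42.7% lower. The list had 3 falls without Sham replicate 3 or without control MSC replicate 2 or 3. Gulo, Cxcl15 and Bpifb5 were among its falls, with log2 changes of −4.04, −3.41 and −4.25, and the groups of Bpifb5 overlapped. The summed FPKM of the list was 1015, 898 and 1471 in Sham and 2938, 1891 and 1605 in control MSC. Ltf, the iron-binding protein lactoferrin, was 23.6, 76 and 46.7 FPKM in Sham and 995, 573 and 481 FPKM in control MSC (log2 change 3.86 ± 0.52, limma adjusted p = 0.000113). Lcn2, which binds bacterial siderophores, was 2.82, 2.81 and 4.45 FPKM in Sham and 73.8, 60.4 and 45.5 FPKM in control MSC (log2 change 3.80 ± 0.48, limma adjusted p = 7.61e-05). Both rose without overlap, and both, with Dmbt1, were highest in control MSC replicate 1. Ltf and Lcn2 are also made by neutrophils, and which cells they came from was not tested.

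Markers of muscle, vessels and stroma fell together with the epithelial ones. Smooth muscle and pericyte markers gave 0 higher and 13 lower of 13 tested (median −1.90), with a summed FPKM of 1618, 856 and 498 in Sham and 269, 252 and 166 in control MSC. Cnn1, a calponin of smooth muscle, was 283, 124 and 92.6 FPKM in Sham and 25.5, 36.1 and 15.9 FPKM in control MSC (log2 change −2.55 ± 0.39, limma adjusted p = 0.000239), and Smtn, Synpo2 and Kcnj8 fell, with log2 changes of −2.20 ± 0.25, −1.92 ± 0.26 and −1.23 ± 0.20 (limma adjusted p = 4.18e-05, 0.000105 and 0.000304). Endothelial markers gave 0 higher and 16 lower of 16 tested (median −1.51), with a summed FPKM of 676, 536 and 382 in Sham and 245, 169 and 156 in control MSC. Tek, a receptor for angiopoietins, was 36, 27.1 and 19.6 FPKM in Sham and 10.4, 6.34 and 5.73 FPKM in control MSC (log2 change −1.75 ± 0.24, limma adjusted p = 0.000124). Kdr, the VEGF receptor, was 12.1, 16 and 8.87 FPKM in Sham and 3.07, 1.47 and 3.47 FPKM in control MSC (log2 change −1.87 ± 0.29, limma adjusted p = 0.000241). Vwf and Esam fell, with log2 changes of −1.70 ± 0.27 and −1.58 ± 0.26 (limma adjusted p = 0.000282 and 0.000349). Stromal and steroid response genes gave 1 higher and 12 lower of 15 tested (median −1.36), and 9 fell under median-ratio scaling. Esr1, the oestrogen receptor, was 65.2, 77 and 90.6 FPKM in Sham and 27.7, 13.2 and 17.7 FPKM in control MSC (log2 change −1.99 ± 0.30, limma adjusted p = 0.00021). Pgr, the progesterone receptor, was 2.95, 2.39 and 2.47 FPKM in Sham and 0.72, 0.25 and 0.4 FPKM in control MSC (log2 change −1.32 ± 0.18, limma adjusted p = 0.000126). Nr2f2 and Cd34 fell, with log2 changes of −1.32 ± 0.19 and −1.69 ± 0.26 (limma adjusted p = 0.000193 and 0.000265). The stromal list also held the rise, Vim, which encodes the filament protein vimentin and is expressed in macrophages too, at 0.59 ± 0.18 (limma adjusted p = 0.0143; 0.0672 without Sham replicate 2 and 0.0575 without Sham replicate 3; named after its value was seen). These values describe RNA in the F4/80-bead fraction; the part of cells other than macrophages in the changes was not tested.

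Mesothelial markers gave 0 higher and 3 lower of 6 tested (median −0.86), beside 42.7% lower over all tested genes. They were led by Krt19 (−1.71 ± 0.40, limma adjusted p = 0.00317), a keratin that the epithelial list holds too. Wt1, a transcription factor of mesothelium and stroma, fell (log2 change −1.61 ± 0.39, limma adjusted p = 0.00401), Gpm6a fell (log2 change −0.93 ± 0.29, limma adjusted p = 0.0162; 0.0618 under median-ratio scaling), and Upk3b did not pass (log2 change −0.79 ± 0.49, limma adjusted p = 0.188). Erythroid genes gave 0 higher and 3 lower of 3 tested (median −1.64): Hba-a1, Hba-a2 and Hbb-bs fell, with log2 changes of −1.58 ± 0.48, −1.64 ± 0.45 and −1.75 ± 0.45 (limma adjusted p = 0.0143, 0.00808 and 0.00544). The 2 alpha globin genes are near-identical copies whose reads may be shared, and Hba-a1 did not pass without Sham replicate 1 (limma adjusted p = 0.0642).

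**Figure D4:**
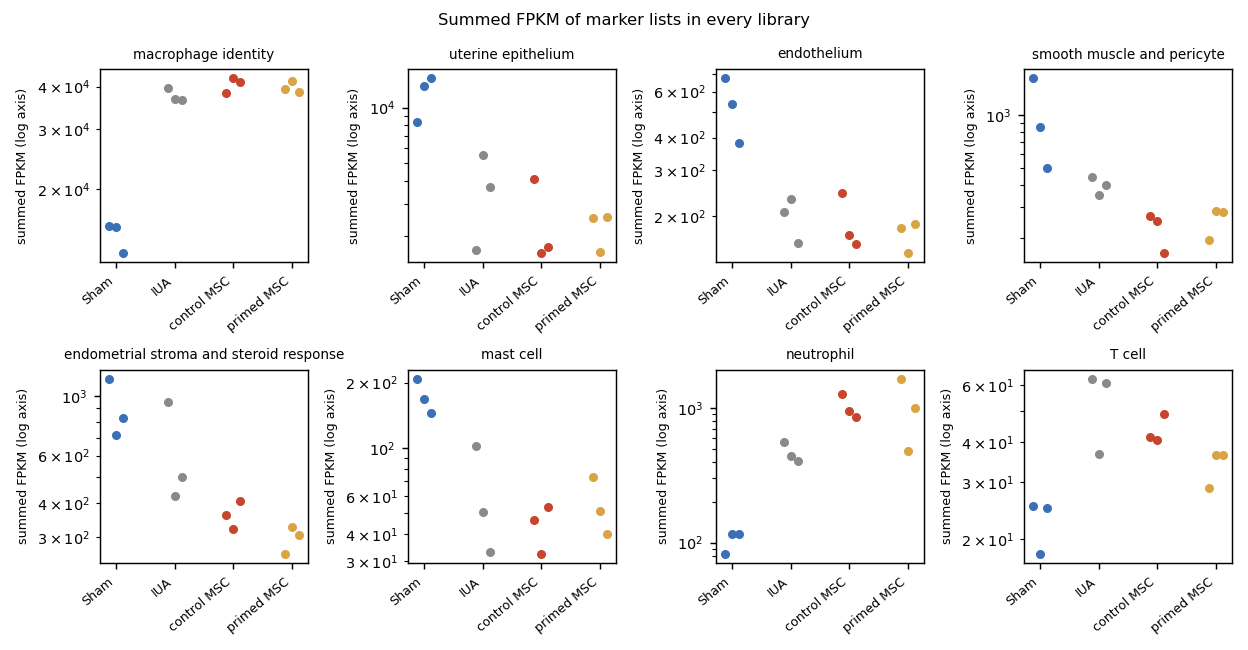
Summed FPKM, on log axes, of marker lists in each library of the 4 groups; each point is 1 library. Epithelial sums run from 8324 to 14478 in Sham and from 1619 to 4071 in control MSC, and neutrophil sums from 82.7 to 117 in Sham, while the control MSC libraries hold 1262, 949 and 860.1.

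Of other leukocytes, neutrophil-list genes rose, with 9 higher and 0 lower of 12 tested (median 2.57). Their summed FPKM was 82.7, 117 and 115 in Sham and 1262, 949 and 860.1 in control MSC, of which Ltf (995, 573 and 481) made up the larger part. Among members that were not tested for their low level, and named after their values were seen, Ly6g, a surface marker of mouse neutrophils, was 0, 0 and 0 FPKM in Sham and 0.12, 0.05 and 0.11 FPKM in control MSC, and Elane and Mpo, granule enzymes that are transcribed mainly in neutrophil precursors, were at most 0.05 and 0.19 FPKM in control MSC. The part of neutrophils in the rises of this list was not tested.

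Mast cell genes gave 0 higher and 7 lower of 8 tested (median −1.74); 4 fell without Sham replicate 1. Kit, the stem cell factor receptor, was 21.4, 37.2 and 37.7 FPKM in Sham and 9.65, 4.95 and 5.91 FPKM in control MSC (log2 change −2.08 ± 0.32, limma adjusted p = 0.000239). Hdc, which makes histamine, was 82.6, 101 and 81.3 FPKM in Sham and 33.5, 25.5 and 30.6 FPKM in control MSC (log2 change −1.53 ± 0.29, limma adjusted p = 0.000832). Fcer1a, of the IgE receptor, and the protease gene Mcpt4 fell, with log2 changes of −1.12 ± 0.21 and −1.61 ± 0.37 (limma adjusted p = 0.000866 and 0.00301). Dendritic cell genes gave 0 higher and 5 lower of 10 tested (median −0.57), beside 42.7% lower over all tested genes. Siglech, a lectin of plasmacytoid dendritic cells, was 5.61, 5.68 and 4.86 FPKM in Sham and 0.38, 0.79 and 0.77 FPKM in control MSC (log2 change −1.96 ± 0.18, limma adjusted p = 9.43e-06). Zbtb46, a transcription factor of conventional dendritic cells, was 7.53, 8.07 and 6.82 FPKM in Sham and 3.65, 2.26 and 2.26 FPKM in control MSC (log2 change −1.20 ± 0.20, limma adjusted p = 0.000452). Dpp4, a peptidase that uterine epithelium expresses too, fell (log2 change −2.16 ± 0.38, limma adjusted p = 0.000589). Kit, Hdc, Siglech and Zbtb46 were lower in every control MSC library. Eosinophil genes gave 0 higher and 1 lower of 4 tested (median −0.42): Alox15, a lipoxygenase, was 143, 92.3 and 199 FPKM in Sham and 71.1, 36.5 and 26.8 FPKM in control MSC (log2 change −1.72 ± 0.40, limma adjusted p = 0.00313), while Prg2 (log2 change −0.48 ± 0.21, limma adjusted p = 0.0653), Ccr3 (log2 change −0.36 ± 0.21, limma adjusted p = 0.167) and Ear2 (log2 change 0.66 ± 0.40, limma adjusted p = 0.173) did not pass.

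Lymphocyte lists were divided, beside 14.1% higher and 42.7% lower over all tested genes. NK cell genes gave 0 higher and 6 lower of 8 tested (median −0.94); 1 fell under median-ratio scaling, 1 without Sham replicate 1 or control MSC replicate 1 or 2, and 2 without Sham replicate 3. The groups overlapped for all 8 tested members; control MSC replicate 3 was the highest and control MSC replicate 1 the lowest of its group for each, with summed FPKM of 61.9, 44.5 and 75.6 in Sham and 9.54, 19.5 and 62.3 in control MSC. Nkg7, of cytotoxic granules, was 25.9, 19.9 and 39.5 FPKM in Sham and 3.39, 7.06 and 21.4 FPKM in control MSC (log2 change −1.62 ± 0.46, limma adjusted p = 0.00974). Klre1, Prf1 and Gzmb fell, with log2 changes of −0.98 ± 0.30, −0.91 ± 0.31 and −1.19 ± 0.42 and lost the call under median-ratio scaling (limma adjusted p = 0.0567, 0.106 and 0.0985). T cell genes gave 2 higher and 1 lower of 6 tested (median −0.14), and the sign of the median depended on the scaling (0.07 with median-ratio). Il7r, the interleukin 7 receptor, was 8.67, 6.91 and 6.1 FPKM in Sham and 32.5, 31.2 and 33 FPKM in control MSC (log2 change 2.03 ± 0.20, limma adjusted p = 1.92e-05). Lck, a kinase of the T cell receptor, was 5.95, 3.43 and 6.62 FPKM in Sham and 0.9, 1.34 and 2.96 FPKM in control MSC (log2 change −1.25 ± 0.30, limma adjusted p = 0.0043). Cd28 rose by 0.60 ± 0.20 (limma adjusted p = 0.0212; 0.0561 without Sham replicate 2, 0.0642 without Sham replicate 3 and 0.0894 without control MSC replicate 3), and Cd2 did not pass (log2 change −0.68 ± 0.29, limma adjusted p = 0.0625). B and plasma cell genes gave 2 higher and 0 lower of 5 tested (median 0.44): Cd79b, of the B cell receptor, was 5.05, 2.53 and 4.34 FPKM in Sham and 8.52, 7.36 and 9.58 FPKM in control MSC (log2 change 0.96 ± 0.25, limma adjusted p = 0.00631), Mzb1, of the secretory path of plasma cells, rose by 0.70 ± 0.28 (limma adjusted p = 0.0498; up to 0.14 when 1 library was left out), and Cd79a (log2 change 0.34 ± 0.30, limma adjusted p = 0.357) and Jchain (log2 change 0.44 ± 0.62, limma adjusted p = 0.56) did not pass.

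Against IUA without cells, control MSC differed in 99 genes (0.853% of those tested), and primed MSC differed from control MSC in 13 (0.112%). These comparisons share the control MSC libraries with the main one, so values are given side by side. Slc13a3, a sodium-coupled carrier of dicarboxylates, was 7.8, 3.51 and 2.76 FPKM in Sham and 56.3, 101 and 66 FPKM in control MSC (log2 change 3.78 ± 0.30, limma adjusted p = 4.33e-06). In IUA it was 5.59, 4.62 and 4.41 FPKM, within the Sham range, and control MSC exceeded IUA by 3.64 ± 0.30 (limma adjusted p = 0.000479). In primed MSC it was 121, 157 and 92.9 FPKM, and primed did not pass against control MSC (limma adjusted p = 0.341). Siglece, an inhibitory receptor for sialic acid, was 8.57, 9.16 and 10.7 FPKM in Sham and 36.9, 57.7 and 45.8 FPKM in control MSC (log2 change 2.17 ± 0.18, limma adjusted p = 5.53e-06) and 11.9, 13.5 and 8.92 FPKM in IUA, from which control MSC differed by 1.94 ± 0.18 (limma adjusted p = 0.000931). For both genes the IUA values overlapped those of Sham.

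Other genes rose against Sham and stood above IUA too. Mmp9 was 12.3, 11.5 and 6.79 FPKM in IUA, and control MSC exceeded it by 2.29 ± 0.26 (limma adjusted p = 0.00545). Adgre1, the gene of the sorted surface protein, was 476, 401 and 424 FPKM in IUA, and control MSC exceeded it by 1.11 ± 0.14 (limma adjusted p = 0.00942). Both genes thus ranked Sham, IUA, control MSC with no overlap between neighbours. Rac2, a GTPase of phagocyte oxidase and movement, was 48.2, 50.1 and 39.3 FPKM in Sham and 157, 260.2 and 189 FPKM in control MSC (log2 change 2.09 ± 0.18, limma adjusted p = 6.06e-06) and 75.4, 72.7 and 73.1 FPKM in IUA (difference 1.41 ± 0.18, limma adjusted p = 0.00942). Irak3, an inhibitor of Toll-like receptor signalling, was 10.3, 8.46 and 10.7 FPKM in Sham and 42.5, 57.1 and 50.4 FPKM in control MSC (log2 change 2.23 ± 0.13, limma adjusted p = 5.79e-07) and 25, 25.1 and 25.2 FPKM in IUA (difference 0.95 ± 0.13, limma adjusted p = 0.0124). Rac2 and Irak3 ranked in the same order, again without overlap. Fcrls, a marker of some tissue macrophages, was 255, 181 and 204 FPKM in Sham and 304, 322 and 339 FPKM in control MSC (log2 change 0.61 ± 0.17, limma adjusted p = 0.00933) but only 132, 118 and 146 FPKM in IUA, below every Sham library (difference of control MSC from IUA 1.29 ± 0.17, limma adjusted p = 0.0106). Fcrl5, an Fc receptor-like gene, was 0, 0.12 and 0.03 FPKM in Sham and 2.99, 7.75 and 4.93 FPKM in control MSC (log2 change 2.50 ± 0.27, limma adjusted p = 2.92e-05) and 0.21, 0.28 and 0.92 FPKM in IUA (difference 2.04 ± 0.27, limma adjusted p = 0.0106).

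In the other direction, Il23a, a chain of interleukin 23, was 0.47, 0.59 and 1.54 FPKM in Sham and 2.37, 3.83 and 3.36 FPKM in control MSC (log2 change 1.19 ± 0.23, limma adjusted p = 0.0011) and 9.8, 13.8 and 10.8 FPKM in IUA, so that control MSC lay above Sham and below IUA (difference from IUA −1.57 ± 0.23, limma adjusted p = 0.0153). Gem, a small GTPase, was 81.5, 64.3 and 58 FPKM in Sham and 28.6, 30.2 and 24.1 FPKM in control MSC (log2 change −1.26 ± 0.14, limma adjusted p = 3.6e-05) and 49.6, 49.9 and 48.8 FPKM in IUA (difference −0.82 ± 0.14, limma adjusted p = 0.0265). Gem was ordered Sham, IUA, control MSC from high to low with no overlap. Cald1, an actin-binding protein, Rnd3, a GTPase that acts on the actin skeleton, Ephx1, an epoxide hydrolase, Adh1, an alcohol dehydrogenase, and Ogn, a proteoglycan of the matrix, fell against Sham, with log2 changes of −2.06 ± 0.20, −1.10 ± 0.15, −1.23 ± 0.17, −1.72 ± 0.31 and −1.94 ± 0.33. Their differences of control MSC from IUA were −1.01 ± 0.20, −0.75 ± 0.15, −0.92 ± 0.17, −1.62 ± 0.31 and −1.69 ± 0.33 (limma adjusted p = 0.0427, 0.0422, 0.0403, 0.042 and 0.0422). The leading rises did not pass against IUA except Dmbt1, which was 2.17, 1.73 and 1.55 FPKM there (limma adjusted p = 0.0287). Arg1, for one, was 986, 1617 and 817 FPKM in IUA (limma adjusted p = 0.813).

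**Figure D5:**
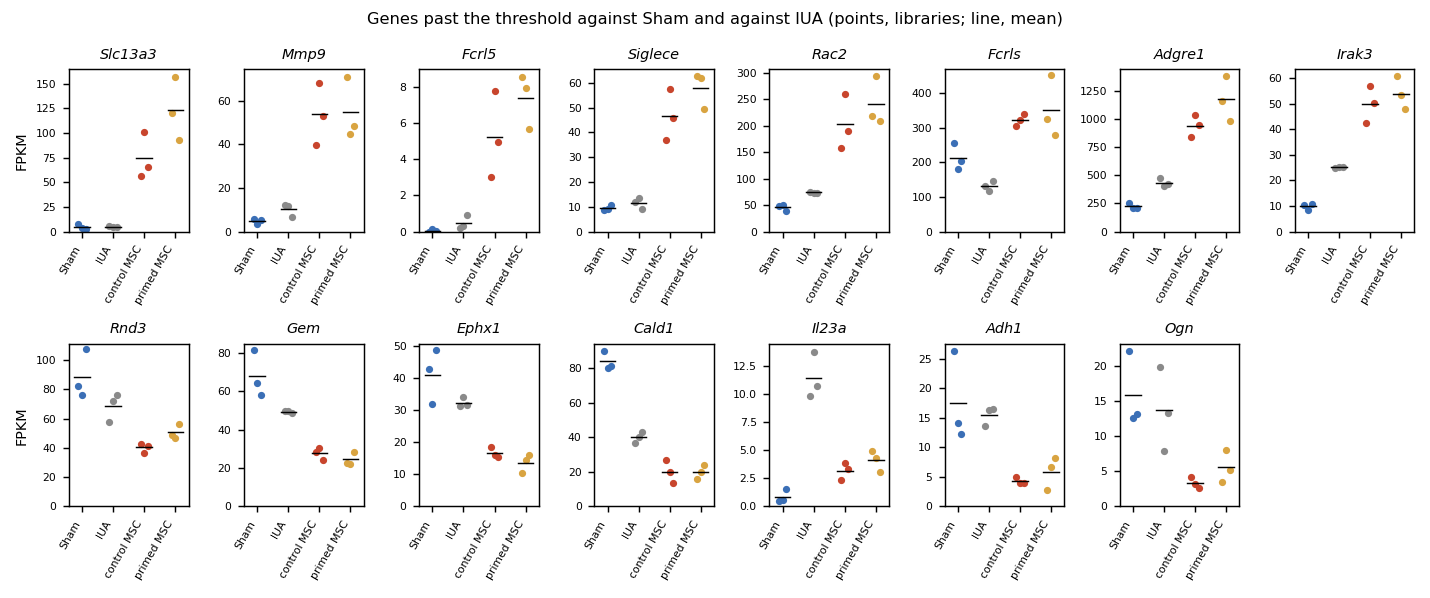
FPKM in each library of the 4 groups (points) with the group mean (line) for 15 genes past the threshold in control MSC against Sham and against IUA, on axes that start at 0. Slc13a3 is 56.3, 101 and 66 in control MSC and below 10 in every Sham and IUA library, and Il23a is higher in every IUA library than in any other.

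Some genes that passed had a wide range among the control MSC libraries. Bpifb5, a secreted lipid-binding protein of glands, was 62.7, 13 and 237 FPKM in Sham and 23.3, 0.24 and 0.03 FPKM in control MSC (log2 change −4.25 ± 1.28, limma adjusted p = 0.0136); its groups overlapped, and it did not pass without Sham replicate 3 (limma adjusted p = 0.063) or control MSC replicate 2 or 3 (0.0574 and 0.0584). Pla2g10, a secreted phospholipase, was 24.8, 55.8 and 59.4 FPKM in Sham and 16.5, 2.92 and 2.43 FPKM in control MSC (log2 change −2.85 ± 0.68, limma adjusted p = 0.00355). Both were highest in control MSC replicate 1. Rnase2a, an eosinophil-associated ribonuclease, was 0, 0 and 0.19 FPKM in Sham and 5.81, 22.6 and 3.92 FPKM in control MSC (log2 change 3.13 ± 0.52, limma adjusted p = 0.000405), with the highest value in replicate 2. Aoc1, which breaks down histamine and putrescine, was 1.31, 1.11 and 0.74 FPKM in Sham and 7.39, 2.04 and 14.3 FPKM in control MSC (log2 change 1.84 ± 0.46, limma adjusted p = 0.00504), with the highest value in replicate 3. These levels differed more than 3-fold within the control MSC group, which no group mean shows.

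Switches from absence to presence were rare. With at most 0.1 FPKM in every Sham library and at least 1 in every control MSC library there were 6 genes: Il12a, Wfdc21, Igkv12-89, Cstdc4, Csta2 and Mrgpra2b, named after their values were seen. Il12a, a chain of interleukins 12 and 35, was listed at 0 in all 3 Sham libraries and at 1.11, 2.4 and 1.52 FPKM in control MSC. The reverse pattern was found for 0 genes.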

How the data were processed

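Polyadenylated RNA of F4/80-positive endometrial cells was sequenced in 12 libraries, 3 in each of 4 groups. The deposited table gives FPKM per gene as the authors computed it. Per the submitters' processing notes, the tools were DESeq2, RSEM, StringTie, HISAT2 and fastp and the build was mm10, with no role or version given. FPKM divides by the summed library, so a few very abundant genes lower the values of all others; no read counts were used here, and the depth was estimated from the steps between low values (90.1 to 96.2% of held-out values came out whole within 0.2). Of 22294 genes, 27 symbols turned into dates were restored, 25 identifiers that share a symbol were kept apart, and 4237 genes at 0 in all libraries stayed untested.

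The 11604 genes that reached 1 FPKM in 3 or more libraries entered limma 3.58.1 in R 4.3.3 on log2(FPKM + 1), with all 12 libraries sharing 1 estimate of the spread, variances moderated along a trend with level, and Benjamini-Hochberg adjustment. On simulated data the method found 72% of log2 changes of 1 and 98% of log2 changes of 2, with 7 false calls. The simulation changed far fewer genes than passed here and held no difference in scaling between libraries. It therefore does not bear on the split of calls. An exact permutation test of 3 libraries against 3 cannot go below p = 0.1 and was not used. Alternatives changed the pseudocount, the filter, the scaling, the libraries in the fit, the replicate block and library weights.

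Genes were named by rule: the 12 largest rises and falls that passed with groups apart and a mean of at least 5 FPKM in the higher group; up to 4 members of smallest p in each of 53 lists; the 10 most abundant genes of each group; up to 8 per direction that also differed from IUA; up to 6 of widest range among control MSC libraries; and Adgre1, Csf1r, Cd68 and Ptprc. Predicted, clone, immunoglobulin and T cell receptor genes were passed over, and a few genes that the rule names are not reported here. Members of the interferon gamma list that fell and hold a promoter match were named besides. The members and lists were chosen with earlier results of these data known. Promoter sequences are from RefSeq, GRCm38.p6. Figures were drawn with matplotlib 3.10.9.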

Additional observations from a re-analysis of the deposited data

How the results depend on the processing

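Scaling moved the split of calls most. Median-ratio scaling gave 2887 genes higher and 2952 lower, and quantile scaling 2971 and 2845, against 1632 and 4960 with FPKM as deposited. TPM scaling went the other way, with 1391 higher and 5711 lower. A filter of at least 5 FPKM left 3299 lower. The median of all genes was 0.015 with quantile scaling. List medians changed sign for ribosomal proteins (0.14, median-ratio), the nuclear-encoded respiratory chain (0.030, median-ratio), growth factors (0.036 with median-ratio and 0.22 with quantile scaling), T cells (0.067 with median-ratio, 0.25 with quantile scaling and 2.03 with the filter of at least 5 FPKM) and dendritic cells (0.070 with that filter); the cause was not tested, and the filter left fewer members. Leaving out any 1 library gave 5457 to 7016 changed genes, 1346 to 1766 higher and 4097 to 5250 lower. Same-numbered Sham and control MSC libraries did not deviate together (correlations −0.29, −0.09 and −0.10), so the numbers were not taken to pair them; a fit with a replicate block gave 6451 changed genes, 1582 higher and 4869 lower. Of 236 genes named by the rule, 224 passed, 196 of these in the same direction under every alternative run, and 0 reversed. Leaving out 1 library ended the call of 13: Bpifb5, Ccnb2, Cd28, Cdk1, Gpm6a, Gzmb, H2-Oa, Hba-a1, Klre1, Mzb1, Prf1, Tgfbi and Top2a. Median-ratio scaling ended it for 18 and quantile scaling for 12, among them Apoe, Ftl1, Cd163 and Ddx58. Median-ratio scaling also gave the call to 2 genes named by the rule, Ubb among them. Of genes named outside the rule, Gbp5 and Cxcl10 lost the call under both scalings, and these and Vim lost it when single libraries were left out. An FPKM of 1 rests on about 30.4 to 47.2 fragments of a 2 kb transcript, so values well below 1 rest on few fragments.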
